A study of Mus musculus with 6 samples.

Results

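Metamyelocytes are neutrophil precursors that have stopped dividing and lie between the myelocyte and the mature neutrophil. Granule proteins are made in waves as a neutrophil matures. Azurophil granule enzymes such as elastase (Elane), myeloperoxidase (Mpo) and proteinase 3 (Prtn3) are made first, in promyelocytes. Specific granule proteins such as lactoferrin (Ltf) follow in myelocytes and metamyelocytes, and gelatinase granule proteins such as Mmp9 come last, before the receptors of circulating neutrophils. Here a cell was taken as a metamyelocyte where its mean scaled score over Ltf, Ly6g and Cd177 was above 1, its mean over Fcnb and Cebpe was at most 1 and its mean over Elane and Mpo was at most 1.5. A scaled score of 1 is 1 SD above the mean of all cells from the same site. The cells were thus selected on these deposited scores, and by this rule 2280 of 23008 cells were metamyelocytes. Levels of these 7 genes are given below only to describe the cells, because the rule fixes them.

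The cells were CD45+ leukocytes sorted from liver pieces of immunocompetent Balb/c mice and profiled by single-cell RNA-seq. The mice had received an intracardiac injection of 4T07 mammary tumour cells, which carried either a scramble shRNA in the pLKO vector (Ctrl) or an shRNA against Tim3 (Tim3-KD). Day 3 gave the adjacent tissue (AT) and micrometastasis pieces, day 12 the macrometastasis pieces, and each library was pooled from a pair of independent mice. All mice carried tumour cells, so there was no tumour-free group, and the knock-down was in the injected cells, which the CD45+ gate removes. Havcr2, the gene of TIM3, therefore checks nothing here, and the metamyelocytes held 1, 7, 2, 5 and 3 UMIs of it in AT Ctrl, micrometastasis Ctrl and Tim3-KD and macrometastasis Ctrl and Tim3-KD. Where 5 values are listed below, they follow this order.

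Each of the 6 groups was a single library, so no group difference was tested and no p-value is given. Intervals are at 95% and cover counting error only, not the spread between mice. Levels are UMIs summed over the metamyelocytes of a library divided by all UMIs of those cells and given per 1000000 UMIs (CPM). The libraries held from 7086531 to 79971793 UMIs, with medians of 6300 to 10248 per cell. The deposited matrices held 4486, 2669 and 2643 genes for AT, micrometastasis and macrometastasis, so a gene may have a value at only some sites. Pairs of libraries shared at most 11 cell barcodes, and 1 barcode was shared between metamyelocytes, those of micrometastasis Tim3-KD and macrometastasis Tim3-KD. The AT Tim3-KD library stood apart, with 542 cells, 19 of them neutrophils and none a metamyelocyte, and it enters no comparison below.

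The cells were described further by Ceacam10, a secreted member of the carcinoembryonic antigen family that the rule did not use. Ceacam10 was picked as a marker with earlier results of these data known, so it does not test the label. Its level in metamyelocytes was 205, 223, 215, 163 and 177 CPM. It was 71.4, 69.4, 69.9, 119 and 85.8 CPM in myelocytes and 42.0, 84.0, 112, 42.7 and 42.2 CPM in mature neutrophils of the same libraries. In all 5 libraries metamyelocytes stood above both neighbouring stages. A UMI of Ceacam10 was found in 23.6, 26.2, 26.7, 22.5 and 21.0% of metamyelocytes after each cell was thinned to 1500 UMIs, against 0.369, 0.137, 0, 0 and 0% of B cells. Without thinning the shares were 85.2, 80.6, 84.5, 68.7 and 66.9% and 0.369, 0.275, 2.96, 0.15 and 0%, at median depths of 9892.5 to 19009 UMIs in metamyelocytes and 3717 to 6311 in B cells.

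The rule gene Ltf was uneven among the members. Its median was 70, 38, 24, 2 and 1 UMIs per cell, and it was detected in 82.3%, 86.1%, 81.3%, 61.1% and 55.2% of them. All 3 marker genes were detected in 82.3%, 84.6%, 80.7%, 53.5% and 51.7%. The macrometastasis members held less Ltf message than those of day 3. The 3 sites were scaled separately, so a score of 1 stands for another level of Ltf in each. Median UMIs per metamyelocyte were 19009, 14794, 13157, 10759 and 9892.5, between those of myelocytes and the 4789.5 to 5456 of mature neutrophils in 4 of the 5 libraries. In macrometastasis Ctrl the myelocyte median was 10382, below that of the metamyelocytes.

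Markers of other liver leukocytes were lower in the metamyelocytes than in the whole libraries, but not absent. The summed level of the macrophage and Kupffer cell markers was 4.26 to 88.0 CPM, against 441 to 6675 CPM in the whole libraries. The B cell markers summed to 0.880 to 3.14 CPM, the NK cell markers to 0.145 to 0.639 CPM and the dendritic cell markers to 0.0723 to 0.639 CPM. Flt3, a defining dendritic cell gene, was at 0 in all 5 libraries. Hepatocyte markers summed to 4.09 to 64.9 CPM, against 16.1 to 147 CPM in the whole libraries, and endothelial markers to 2.98 to 21.1 CPM. Monocyte markers summed to 126 to 348 CPM, against 670.1 to 1089 CPM, and were at 348 against 1034 CPM in AT Ctrl. Most of the sum was Ly6c2 in AT Ctrl, at 333 CPM, and in micrometastasis Ctrl, at 146 of 178 CPM. The T cell list summed to 83.5 to 139.7 CPM through 1 gene, Cd3d, which is described at the end. Leaving out members with UMIs of at least 2 markers of another class kept 149 of 203, 303 of 423, 587 of 819, 253 of 355 and 356 of 480. Ly6c2 and Cd3d were among the markers counted for this. The members left out in this way stay in the results below unless stated.

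Metamyelocytes made up a larger part of the CD45+ cells in the Tim3-KD library than in the Ctrl library of micrometastasis. They were 423 of 5106 cells in Ctrl, 8.28% (exact binomial interval 7.54 to 9.07), and 819 of 5142 in Tim3-KD, 15.9% (14.9 to 17.0). The difference was 7.64 percentage points (Newcombe interval 6.39 to 8.90). It lay in members of lower score over Ltf, Ly6g and Cd177. Members of score 1 to 1.2 numbered 74 in Ctrl and 169 in Tim3-KD, and those of 1.2 to 2 numbered 195 and 486. Members over 2 were nearly equal in number, 154 and 164, and the median score was 1.77 and 1.58. In macrometastasis they were 355 of 4913 cells in Ctrl, 7.23% (6.52 to 7.99), and 480 of 5502 in Tim3-KD, 8.72% (7.99 to 9.5), a difference of 1.5 points (0.455 to 2.54). In AT Ctrl they were 203 of 1803 cells, 11.3% (9.84 to 12.8), and in AT Tim3-KD 0 of 542 cells, which allows a share of up to 0.554% by a floor of 3 cells and up to 0.678% by the exact binomial interval. The share plot shows micrometastasis Tim3-KD above every other library, with an interval that does not overlap theirs.

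**Figure D1:**
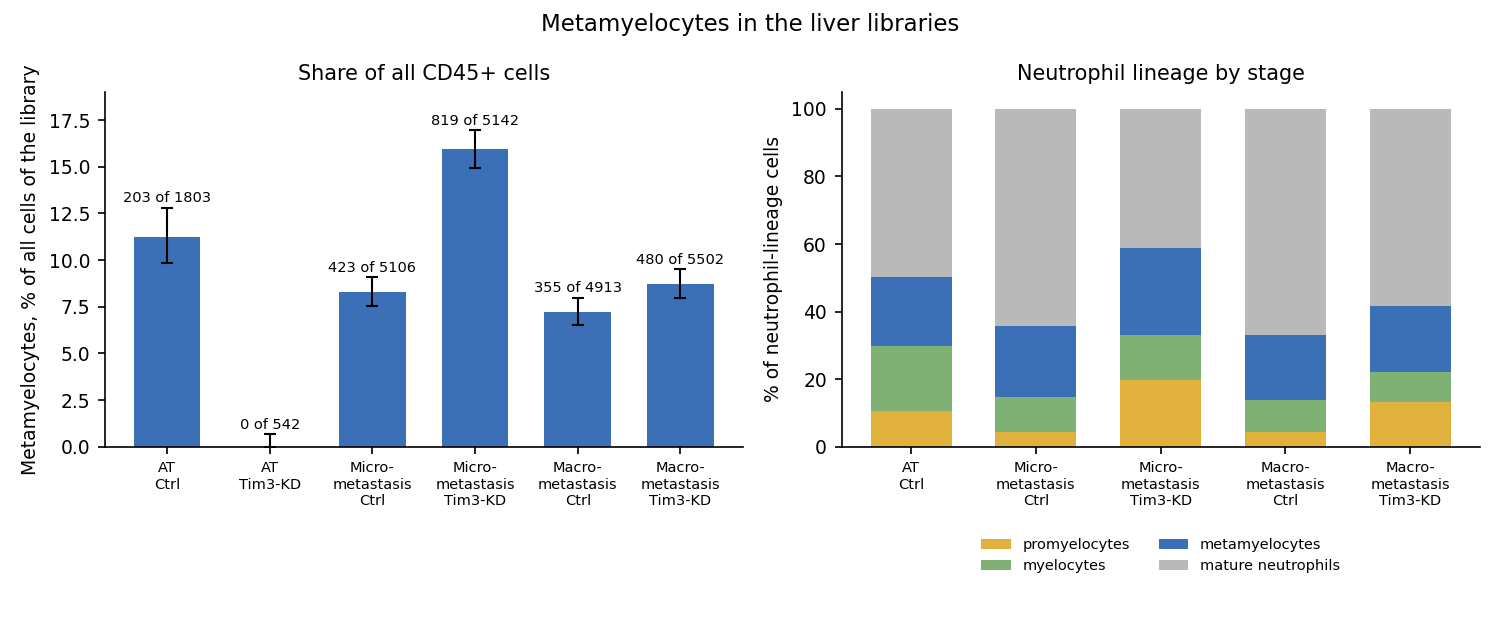
Left, metamyelocytes as a percentage of all CD45+ cells of each library, 1 library per bar, with exact binomial intervals for counting error. Right, the 4 stages as percentages of the neutrophil-lineage cells of each library. Micrometastasis Tim3-KD is highest in metamyelocytes, at 15.9% of cells and 25.7% of the lineage, and AT Tim3-KD has none among 542 cells.

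Within the neutrophil lineage the libraries were closer together. Metamyelocytes were 20.3%, 21.0%, 25.7%, 19.4% and 19.6% of all lineage cells. The Tim3-KD minus Ctrl difference was 4.65 points (2.29 to 6.96) in micrometastasis and 0.180 points (-2.24 to 2.56) in macrometastasis. The larger share in micrometastasis Tim3-KD thus went with more lineage cells, 3189 against 2011, as well as with a larger part of the lineage. Earlier stages were also larger shares of all cells there, promyelocytes at 12.2% against 1.70% and myelocytes at 8.34% against 4.11%. Mature neutrophils were at 25.6% against 25.3%. Promyelocytes, the Elane-high and Mpo-high precursors, differed more between the lines. There were 1.92, 4.86, 1.31, 4.33 and 1.47 metamyelocytes per promyelocyte, so the ratio was lower in Tim3-KD at both sites. Per myelocyte there were 1.06, 2.01, 1.91, 2.10 and 2.23 metamyelocytes, and per mature neutrophil 0.408, 0.328, 0.623, 0.291 and 0.336.

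Between the Ctrl libraries the share of metamyelocytes was lower in micrometastasis than in AT, with a difference of -2.97 points (-4.68 to -1.39). Where the lineage was the denominator, the difference was 0.694 points (-2.43 to 3.70), in the other direction. Macrometastasis minus micrometastasis was -1.06 points (-2.11 to -0.00977). Macrometastasis differs from micrometastasis in site and in day, which cannot be told apart. The share at each site also depends on the separate scaling. With micrometastasis thresholds carried over to the other sites on unscaled log values, the macrometastasis shares were 3.22% and 4.05% and the difference from micrometastasis was -3.85 points.

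The first question about the cells was where they stand in granule production. Metamyelocytes were compared with the myelocytes (Fcnb and Cebpe score above 1) and mature neutrophils (Csf3r, Cxcr2 and Il1r2 score above 0.3) of the same libraries. A gene was counted as higher or lower where it went the same way in all 5 libraries with a median ratio of at least 2-fold. Genes held by only some of the matrices were not counted. These stages were cut from scores of the same cells, so the counts describe them and test nothing. Cells of other types that met these score limits were not removed from the myelocytes or the mature neutrophils. Against myelocytes 16.6% of 1219 genes were higher and 14.9% lower. As means over cells rather than summed UMIs, 58 instead of 202 genes were higher. Against mature neutrophils 1.82% of 1430 genes were higher and 45.1% lower, and the median gene was at a log2 ratio of -0.95. The stage plot shows the order of the granule genes.

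**Figure D2:**
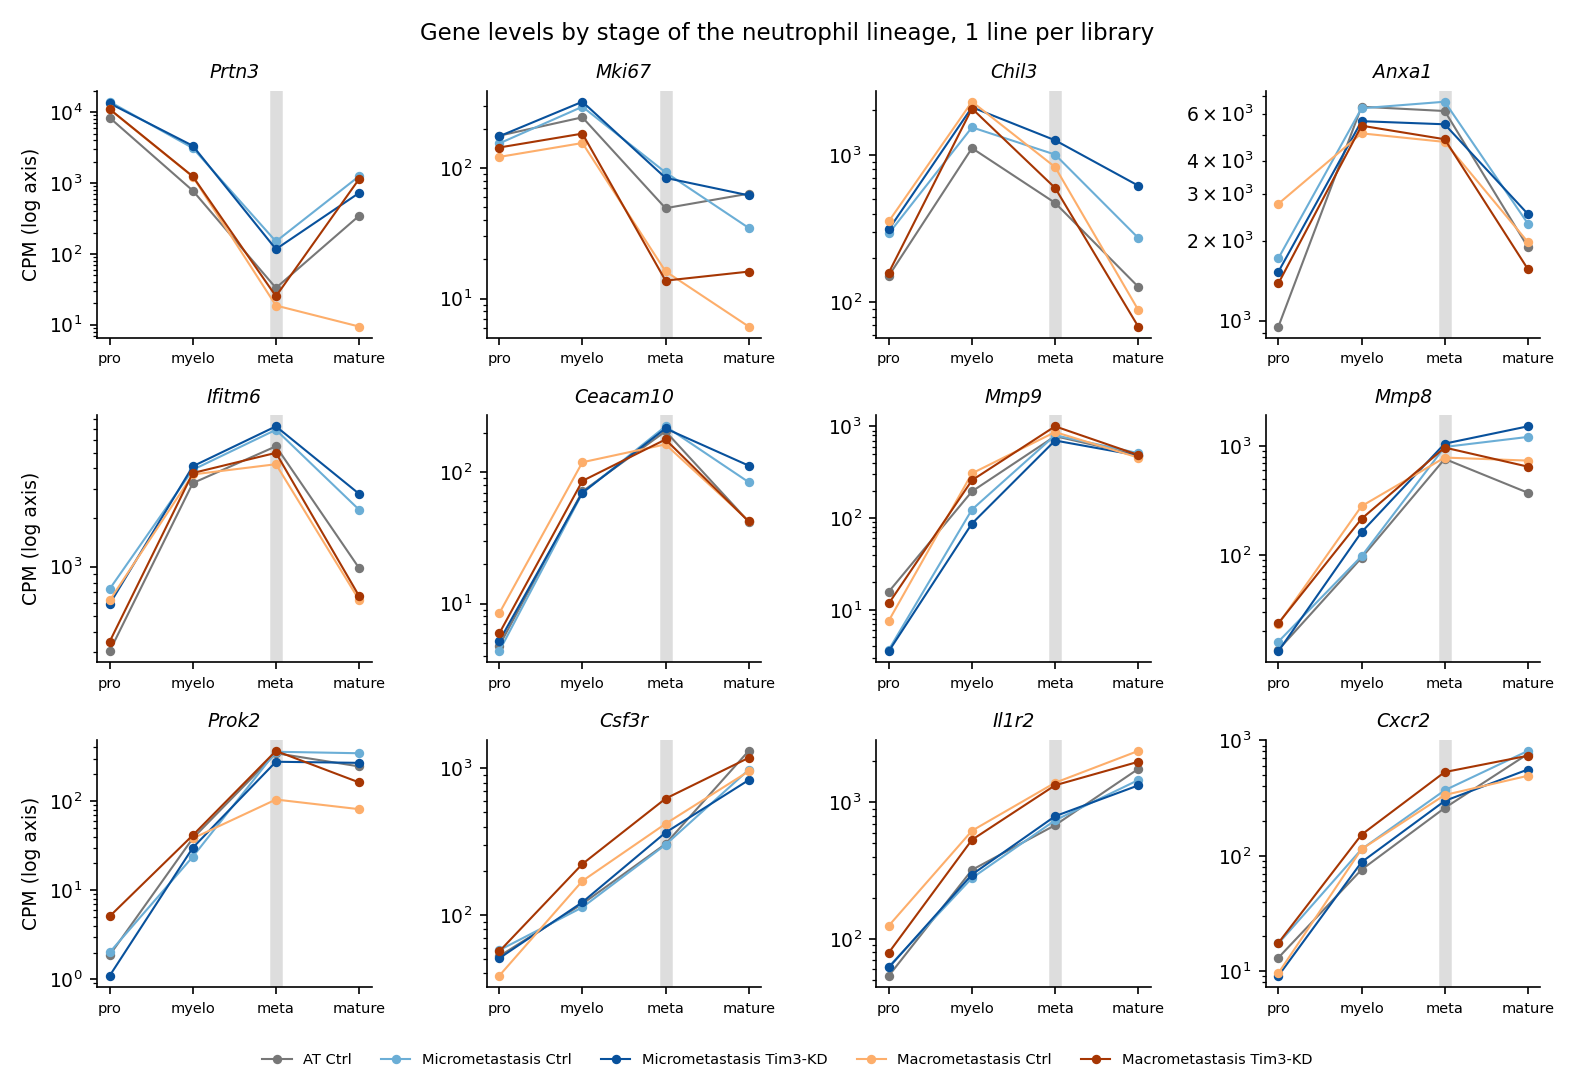
Level of 12 genes (CPM, log axis) in promyelocytes (pro), myelocytes (myelo), metamyelocytes (meta, grey band) and mature neutrophils (mature), with 1 line for each of the 5 libraries. Prtn3 is highest in promyelocytes, Chil3 in myelocytes, Ceacam10, Ifitm6 and Mmp9 in metamyelocytes, and Csf3r and Cxcr2 in mature neutrophils.

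Azurophil granule genes were lower than in myelocytes for 7 of 7 tested. Against mature neutrophils 3 of 7 were lower, namely Mpo, Ctsg and Nkg7, a share near the 45.1% of all genes. The 7 include Elane and Mpo of the rule. Prtn3, a serine protease, was at 8358, 14058, 13328, 10979 and 11042 CPM in promyelocytes. It was 781, 3119, 3357, 1230.0 and 1241 CPM in myelocytes and 33.0, 149.7, 117, 18.6 and 25.2 CPM in metamyelocytes. The 2 macrometastasis libraries had the lowest of these metamyelocyte levels. With micrometastasis thresholds carried over, Prtn3 was instead higher in macrometastasis Ctrl than in micrometastasis Ctrl, so this order depends on how the cells were chosen. Against promyelocytes 31.2% of 1355 genes were higher and 27.6% lower, and the protease gene Ctsg was farthest below them, with a median log2 ratio of -9.82.

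Specific granule genes were mostly higher in metamyelocytes than in mature neutrophils. Of 10 tested, 9 were higher than in mature neutrophils, with a median log2 ratio of 1.80, and 1 was higher and 3 lower than in myelocytes. Ltf, Cd177 and Fcnb of the rule are among the 10. Ifitm6, counted among the 10 only because the fixed list holds it, is an interferon-induced transmembrane family member expressed in myeloid cells. Its level was 5469, 6905, 7248, 4247 and 4987 CPM in metamyelocytes and 982, 2236, 2797, 626 and 662 CPM in mature neutrophils. Chil3, the chitinase-like lectin Ym1, was at 473, 1004, 1255, 826 and 597 CPM in metamyelocytes. It was higher in myelocytes, at 1110.5, 1536, 2103, 2291 and 2061 CPM, and lower in mature neutrophils, at 128, 273, 619, 88.9 and 68.6 CPM. Olfm4, a glycoprotein of a subset of specific granules, was at 737, 554, 459, 396 and 467 CPM in metamyelocytes and Anxa1, the annexin stored in neutrophil granules, at 6140.5, 6655, 5474, 4699 and 4809 CPM.

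A further 3 specific granule genes had values only in macrometastasis. Camp encodes the cathelicidin precursor, and its level in the Ctrl library was 17698 CPM in myelocytes, 3222 in metamyelocytes and 26.3 in mature neutrophils. Ngp, a cystatin-like granule protein, was at 27486, 13242 and 909 CPM. Lcn2, the iron-siderophore binding lipocalin, was at 11613, 7979 and 3001 CPM. All 3 descended from myelocyte to mature neutrophil, Camp most steeply. In the Tim3-KD library the metamyelocyte levels were 3661, 12019 and 8791 CPM.

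Gelatinase granule genes were already present. Of 5 tested, 4 were higher than in myelocytes and 1 was higher than in mature neutrophils. Mmp8, the neutrophil collagenase, was at 760.1, 979, 1049.7, 782 and 966 CPM in metamyelocytes against 94.2, 97.4, 162, 280.4 and 215 CPM in myelocytes. Mmp9, gelatinase B, was at 783, 801, 702, 868 and 1002 CPM against 196, 124, 87.3, 308 and 259 CPM. Both genes were higher than in myelocytes in every library. In mature neutrophils Mmp9 was at 487, 512, 482, 457 and 488 CPM, below the metamyelocytes of the same library each time, whereas Mmp8 at 372, 1209, 1513, 734 and 646 CPM was above them in both micrometastasis libraries and below them in the other 3.

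The promoters of these granule genes are shown because C/EBP factors, among them the rule gene Cebpe, are known regulators of granule genes. The C/EBP core TTGCNNAA was searched on both strands of the 250 bases before the RefSeq start, and lies in 10.8% of 27025 genes with a promoter sequence. It was present in 5 of 15 specific granule genes (Ltf, Ngp, Lcn2, Anxa1 and Fcnb), 3 of 8 gelatinase granule genes (Mmp8, Adam8 and Slpi) and 0 of 7 azurophil granule genes. The sequences are from RefSeq, build GRCm38.p6, written 5′ to 3′ on the plus strand, on which all 4 genes lie, with the match in capitals. In Ltf (chr9:111019042-111019270, 229 bases) the match TTGCCCAA is on the minus strand, 75 to 68 bases before the start. In Ngp (chr9:110419558-110419746, 189 bases) it is on the plus strand, 138 to 131 bases before the start, and another lies 11 to 4 bases before the start, outside the stretch printed. In Mmp8 (chr9:7558179-7558428, 250 bases) the match TTGCTCAA is 19 to 12 bases before the start. Ceacam10 (chr7:24776917-24777166, 250 bases) holds none in this window.
Ltf: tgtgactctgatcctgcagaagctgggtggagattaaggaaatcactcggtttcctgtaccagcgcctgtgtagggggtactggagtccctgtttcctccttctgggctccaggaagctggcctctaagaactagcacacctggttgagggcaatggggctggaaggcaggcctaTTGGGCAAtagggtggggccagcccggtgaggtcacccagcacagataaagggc
Ngp: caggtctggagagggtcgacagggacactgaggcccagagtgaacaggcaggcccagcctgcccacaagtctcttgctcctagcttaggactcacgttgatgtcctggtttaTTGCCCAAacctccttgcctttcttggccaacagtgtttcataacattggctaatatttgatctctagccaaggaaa
Mmp8: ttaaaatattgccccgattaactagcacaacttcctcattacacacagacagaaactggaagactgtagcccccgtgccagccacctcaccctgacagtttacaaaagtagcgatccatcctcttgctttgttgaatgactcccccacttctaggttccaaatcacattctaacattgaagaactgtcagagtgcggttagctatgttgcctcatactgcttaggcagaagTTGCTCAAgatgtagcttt
Ceacam10: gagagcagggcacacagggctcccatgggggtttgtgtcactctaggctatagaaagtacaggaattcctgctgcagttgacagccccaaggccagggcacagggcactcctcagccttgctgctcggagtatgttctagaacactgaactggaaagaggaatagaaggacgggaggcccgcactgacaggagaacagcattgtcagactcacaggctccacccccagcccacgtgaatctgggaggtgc

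Cell cycle genes were lower than in myelocytes for 13 of 13 tested. Mki67, a marker of dividing cells, was at 244, 294, 321, 155 and 183 CPM in myelocytes and 49.2, 92.4, 83.9, 16.2 and 13.7 CPM in metamyelocytes, so a part of the message remained at day 3 and little at day 12. Against mature neutrophils 1 of 13 was lower and 12 were within 2-fold or not of the same direction. Mature neutrophils over 20000 UMIs, 1.81% to 3.8% of that stage, held 11.8% to 24.0% of its UMIs and 81.0% to 98.5% of its Phgdh, an enzyme of serine synthesis at 77.6 to 155 CPM in promyelocytes. They held 84.6% to 98.8% of the Ctsg of that stage in 4 libraries and 0% in macrometastasis Ctrl. Without those cells 46 genes instead of 26 were higher in metamyelocytes than in mature neutrophils.

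Of 8 surface and trafficking receptors, 6 were higher than in myelocytes, Ly6g of the rule included, against 16.6% of all genes. Against mature neutrophils, a stage that Csf3r, Cxcr2 and Il1r2 define, 2 of 8 were lower and 1 was higher, where 45.1% of all genes were lower. Cd14, a co-receptor for lipopolysaccharide, was at 549, 623, 422, 1215 and 1057 CPM in myelocytes, 1045, 1441, 1049, 2476 and 2325 CPM in metamyelocytes and 1732, 2388, 1525, 3236 and 2758 CPM in mature neutrophils. Ccr1, a chemokine receptor, was at 138, 135, 122, 295 and 291, then 264, 335, 279.9, 562 and 617, then 761, 598, 467, 914 and 895 CPM over the same stages. Both ascended with maturation in every library. Of 16 inflammatory genes 7 were higher than in myelocytes and 9 were within 2-fold or not of the same direction. Of 17 such genes 11 were lower than in mature neutrophils, with a median log2 ratio of -1.36 against -0.95 over all genes. The cytokine gene Il1b, with values at day 3 only, was at 375, 978 and 695 CPM in metamyelocytes and 4170.0, 5708 and 2327 CPM in mature neutrophils. Of 14 interferon-response genes 9 were higher than in myelocytes and 10 lower than in mature neutrophils. Of the 4 stefin A genes, which encode cysteine protease inhibitors, 3 were higher than in myelocytes and 1 was higher than in mature neutrophils. The stefin A genes are near-identical copies, and how the counting split reads among them is not known.

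Among the genes farthest above myelocytes outside the rule were Ggt1, a glutathione-cleaving surface enzyme, and Prok2, the secreted peptide prokineticin 2. Ggt1 was at 4.88, 7.92, 10.8, 12.8 and 13.4 CPM in myelocytes and 64.9, 111, 114, 48.7 and 81.7 CPM in metamyelocytes. Prok2 was at 38.2, 23.8, 30.0, 38.1 and 41.4 CPM in myelocytes and 344, 357, 276, 104 and 365 CPM in metamyelocytes. The median log2 ratios were 3.4 and 3.17, and both went the same way in 5 of 5 libraries. The kinase Bmx (2.28), the small GTPase Rhoc (3.03) and the interferon-induced Ifit1 (2.36) and Ifit3b (2.43) were also among the 8 highest. The lowest outside the rule were Prtn3 (-4.85), the Fc receptor Fcgr1 (-4.57), the membrane protein Ms4a4c (-4.49), the dUTP-hydrolysing enzyme Dut (-4.17) and fibronectin, Fn1 (-3.99). Ms4a4c and Fn1 are on the monocyte marker list. The part of other cell types among the myelocytes in these ratios was not tested. Against mature neutrophils the highest outside the rule were Ifitm6 (2.48), Ceacam10 (1.93), the protease inhibitor Serpinb1a (1.90), Chil3 (1.89) and the extracellular matrix protein Tinagl1 (1.83). The 8 lowest were Phgdh (-4.99), Adgre4 (-4.65), Fkbp11 (-4.65), Ass1 (-4.61), Ms4a4c (-4.57), Ms4a6c (-4.57), Rnd3 (-4.55) and Ctsg (-4.55). C1qa, a macrophage marker, had a micrometastasis Tim3-KD over Ctrl ratio of 8.58 (7.35 to 10.1) in mature neutrophils and 1.54 in metamyelocytes. The part of monocytes and macrophages among the mature neutrophils in the genes called lower was not tested.

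The members were not uniform along the score that chose them. They were split into cells just inside the threshold (score 1 to 1.2), from 1.2 to 2 and over 2, and set beside cells just outside it (0.8 to 1) that met the other limits. There were 31, 98, 168, 59 and 79 cells just outside and 27, 74, 169, 56 and 63 just inside. Csf3r, the receptor of the growth factor G-CSF, was at 733, 586, 313 and 227 CPM over these 4 bands in AT Ctrl. It was at 497, 521, 375 and 210.1 CPM in micrometastasis Tim3-KD and at 1087, 974, 837 and 418 CPM in macrometastasis Tim3-KD. The cells over 2 were lowest for Csf3r in all 5 libraries.

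The chemokine receptor gene Cxcr2 was likewise lowest over 2 in all 5 libraries, for example 691, 642, 346 and 307 CPM in micrometastasis Ctrl. Ceacam10 ran the other way, with 154, 184, 210.0 and 256 CPM in micrometastasis Ctrl and 86.0, 120.4, 146 and 208 CPM in macrometastasis Tim3-KD. Mmp8 was higher in the low band of both micrometastasis libraries, at 1507, 1591, 909.8 and 864 CPM in Ctrl. Ltf itself was at 41.6, 46.2, 309 and 2537 CPM in macrometastasis Ctrl, so that the members of low score there hold little of it and were chosen through Ly6g and Cd177. Cells just inside and just outside the threshold resembled each other in Csf3r and Cxcr2 more than they resembled the cells over 2. Median UMIs per cell also differed along the score, for example 9158 just outside and 21223 over 2 in AT Ctrl, and their part in these differences was not tested.

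**Figure D3:**
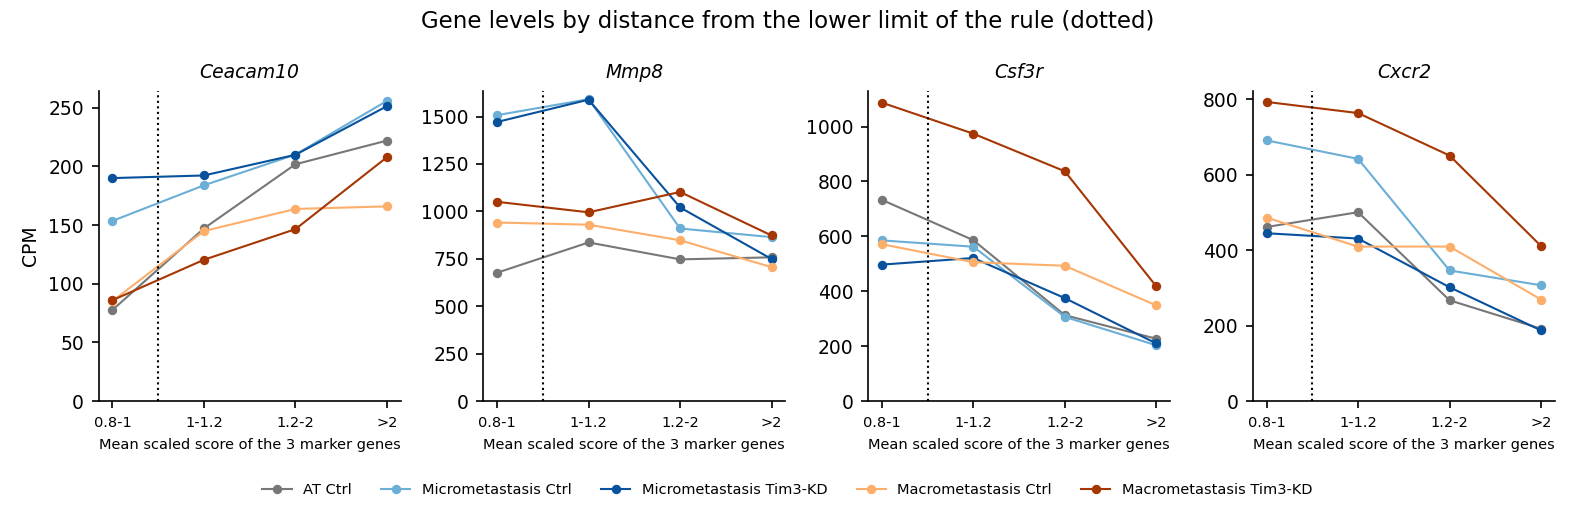
Level (CPM) of Ceacam10, Mmp8, Csf3r and Cxcr2 along the mean scaled score of Ltf, Ly6g and Cd177, from cells just outside the threshold (dotted line) to cells with a score over 2, with 1 line for each of the 5 libraries. Csf3r and Cxcr2 are lowest in cells over 2, where Ceacam10 is highest in every library.

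Tim3-KD was then set against Ctrl, to see how metamyelocytes differ with the TIM3 level of the tumour cells. A gene with at least 50 UMIs over both libraries was counted as higher or lower where the ratio of its CPM was at least 2 or at most 0.5. The micrometastasis Ctrl library also enters the comparisons with AT and with macrometastasis, and the macrometastasis Ctrl library those with micrometastasis and with its own Tim3-KD library. Features that join several genes under 1 name were not named, since their reads cannot be assigned.

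In micrometastasis a few inflammatory mediators of the metamyelocytes differed by over 2-fold between the tumour lines. Of 1838 genes 3.81% were higher and 2.88% lower in Tim3-KD, and as means over cells the share of higher among the calls was 43.9% instead of 56.9%. None of the 7 azurophil, 10 specific and 6 gelatinase granule genes, 12 receptors and 4 stefin A genes passed 2-fold, a count near the low share of all genes. Of 20 inflammatory genes 2 were higher and 3 were lower. Tnf, the cytokine, was at 96.3 against 45.4 CPM, a ratio of 2.12 (1.88 to 2.40). Csf1, the macrophage growth factor, was at 81.5 against 38.4 CPM, a ratio of 2.12 (1.86 to 2.42). Both ratios were near the 2-fold line and were under it in other settings, at 1.89 for Tnf as a mean over cells and 1.64 for Csf1 with carried thresholds.

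The inflammatory genes that were lower in micrometastasis Tim3-KD were chemokines and a prostaglandin enzyme. Ccl4, a CC chemokine, was at 21.1 against 117 CPM, a ratio of 0.181 (0.158 to 0.207), and at 0.493 in all other cells of these libraries. Cxcl3, a ligand of CXCR2, was at 8.09 against 29.2 CPM, a ratio of 0.277 (0.219 to 0.35), and 0.191 in the other cells. Ptgs2, the inducible prostaglandin synthase, was at 6.79 against 19.1 CPM, a ratio of 0.356 (0.271 to 0.466). These 3 ratios stayed under 0.5 in every setting run. Il1b was at 695 against 978 CPM, within 2-fold. Nfkbia, the inhibitor of NF-kB, was at 1374 against 728 CPM, a ratio of 1.89 (1.83 to 1.94).

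The highest ratios in micrometastasis were of genes at low levels. Map3k14, the NF-kB inducing kinase NIK, was at 7.59 against 0.954 CPM (105 against 7 UMIs), a ratio of 7.95 (3.73 to 20.3), and 0.793 in the other cells. Adora2b, an adenosine receptor, had a ratio of 3.95 (2.40 to 6.86), Itga5, the integrin subunit that binds fibronectin, 3.53 (2.04 to 6.55), Tsc1, an inhibitor of mTORC1 signalling, 3.05 (1.91 to 5.11), and Lfng, a glycosyltransferase that modifies Notch, 2.85 (1.91 to 4.40). In the other cells their ratios were 0.761, 0.886, 1.10 and 0.596. In mature neutrophils these ratios were 2.90, 1.505, 2.28 and 1.22, and that of Map3k14 was 1.94. All were thus above 1 in that stage as well, though the interval of Lfng (0.986 to 1.51) included 1. In myelocytes the intervals of all these genes included 1. Alb, a hepatocyte gene, was at 8.53 against 2.32 CPM, and the hepatocyte marker list was at 14.6 against 4.09 CPM. The part of hepatocyte RNA in this ratio was not tested.

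The lowest ratio was that of B3gnt2, a glycosyltransferase that builds poly-N-acetyllactosamine chains. It had 4 against 164 UMIs, 0.289 against 22.4 CPM, a ratio of 0.0129 (0.00348 to 0.0337). The ratio was 0.0261 in the other cells, 0.0193 in myelocytes and 0.0291 in mature neutrophils, so it was low throughout the library. Trim5, a restriction factor family member, was at 5.78 against 33.8 CPM, with 0.171 in metamyelocytes and 0.172 in the other cells. The replication-dependent histone genes H2ac20 and H3c3 had ratios of 0.0935 and 0.103. Histone genes are near-identical copies whose messages mostly lack a poly(A) tail, so these values are uncertain. Of 14 cell cycle genes 2 were lower, Rrm2 (0.399) and Tyms (0.414), both of nucleotide synthesis, and these were at 0.56 and 0.767 with carried thresholds.

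In macrometastasis, at day 12, the Tim3-KD metamyelocytes were higher in some interferon-response and inflammatory genes. Of 1431 genes 3.98% were higher and 3.63% lower, and relative to a trimmed mean over the genes the share of higher among the calls was 63.5% instead of 52.3%. Of 12 interferon-response genes 5 were higher and 1 lower, with a median log2 ratio of 0.79 against -0.14 over all genes tested. Oasl2, an antiviral OAS-like protein, was at 20.6 against 5.62 CPM, a ratio of 3.67 (2.37 to 5.90), while the other cells were at 0.933. Irf7, a transcription factor of the interferon response, was at 75.7 against 33.0 CPM, a ratio of 2.29 (1.90 to 2.78). Oasl1 (2.45), Ifit1 (2.34) and the GTPase gene Gbp2 (2.29) were the other 3. These last 3 depended on the cells taken. Among cells of score over 1.5 they were at 1.95, 1.40 and 1.94, and with carried thresholds Ifit1 was at 0.80. Cxcl10, an interferon-induced chemokine, was lower, at 10.9 against 29.6 CPM. After thinning, a UMI of the interferon-response gene Isg15 was found in 20.8% of Tim3-KD against 9.30% of Ctrl metamyelocytes. It was found in 18.6% against 9.47% of myelocytes and 35.4% against 18.4% of mature neutrophils, so this difference was not particular to metamyelocytes. In B cells the shares were 2.24% against 3.15% and in T cells 5.41% against 6.46%.

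Of 17 inflammatory genes 3 were higher and none lower than 2-fold in macrometastasis Tim3-KD. Prok2 was at 365 against 104 CPM, a ratio of 3.51 (3.17 to 3.89), and its ratio was 1.09 in myelocytes and 2.00 in mature neutrophils. Osm, the cytokine oncostatin M, was at 202 against 69.9 CPM, a ratio of 2.89 (2.54 to 3.28). Cxcl3 was at 118 against 53.7 CPM, a ratio of 2.19 (1.89 to 2.55). G0s2, an inhibitor of the triglyceride lipase ATGL, was in no list and had the highest level of the 12 named genes at this site. It was at 3096 against 926 CPM, a ratio of 3.34 (3.23 to 3.46), with 1.39 in myelocytes and 2.94 in mature neutrophils. The ratios of G0s2, Prok2, Osm and Cxcl3 stayed past 2-fold in every setting run.

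Further named genes were higher at lower levels. Rhoc was at 25.7 against 4.04 CPM, a ratio of 6.36 (3.88 to 11), but 1.15 in myelocytes and 1.34 in mature neutrophils. Cxcr1, a receptor of the CXC chemokines, was at 19.9 against 4.27 CPM, a ratio of 4.66 (2.85 to 8.03), and 3.46 in myelocytes and 4.2 in mature neutrophils. Fabp5, a fatty acid binding protein, was at 50.9 against 14.1 CPM, a ratio of 3.59 (2.73 to 4.80). Among the receptors of the fixed list 1 of 10 passed 2-fold, Cd101, a surface marker of late maturation, with a ratio of 2.40. Csf3r and Cxcr2 were within 2-fold, at 621 against 419 CPM and 531 against 336 CPM. None of the 14 specific and 6 gelatinase granule genes passed 2-fold, and Camp was at 3661 against 3222 CPM.

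The lowest ratio in macrometastasis was that of Hmga1, an architectural chromatin protein, with 1 against 115 UMIs. The ratio was 0.00681 (0.000171 to 0.0387) in metamyelocytes, 0.0809 in the other cells of the libraries, 0.0901 in myelocytes and 0.0360 in mature neutrophils, so it was low throughout. Ugt1a7c, a glucuronidating enzyme, was at 12.0 against 60.0 CPM, a ratio of 0.200 (0.151 to 0.261) against 0.132 in the other cells. The MHC class II gene H2-Ab1 (H2.Ab1 in the files) was at 5.46 against 20.9 CPM, and its ratio of 0.261 was 0.519 where cells with at least 2 markers of another class were left out. The transcriptional regulator Id3 (0.267) and Crip1, a LIM domain protein (0.366), were the others. The plot of Tim3-KD over Ctrl ratios sets both sites side by side.

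**Figure D4:**
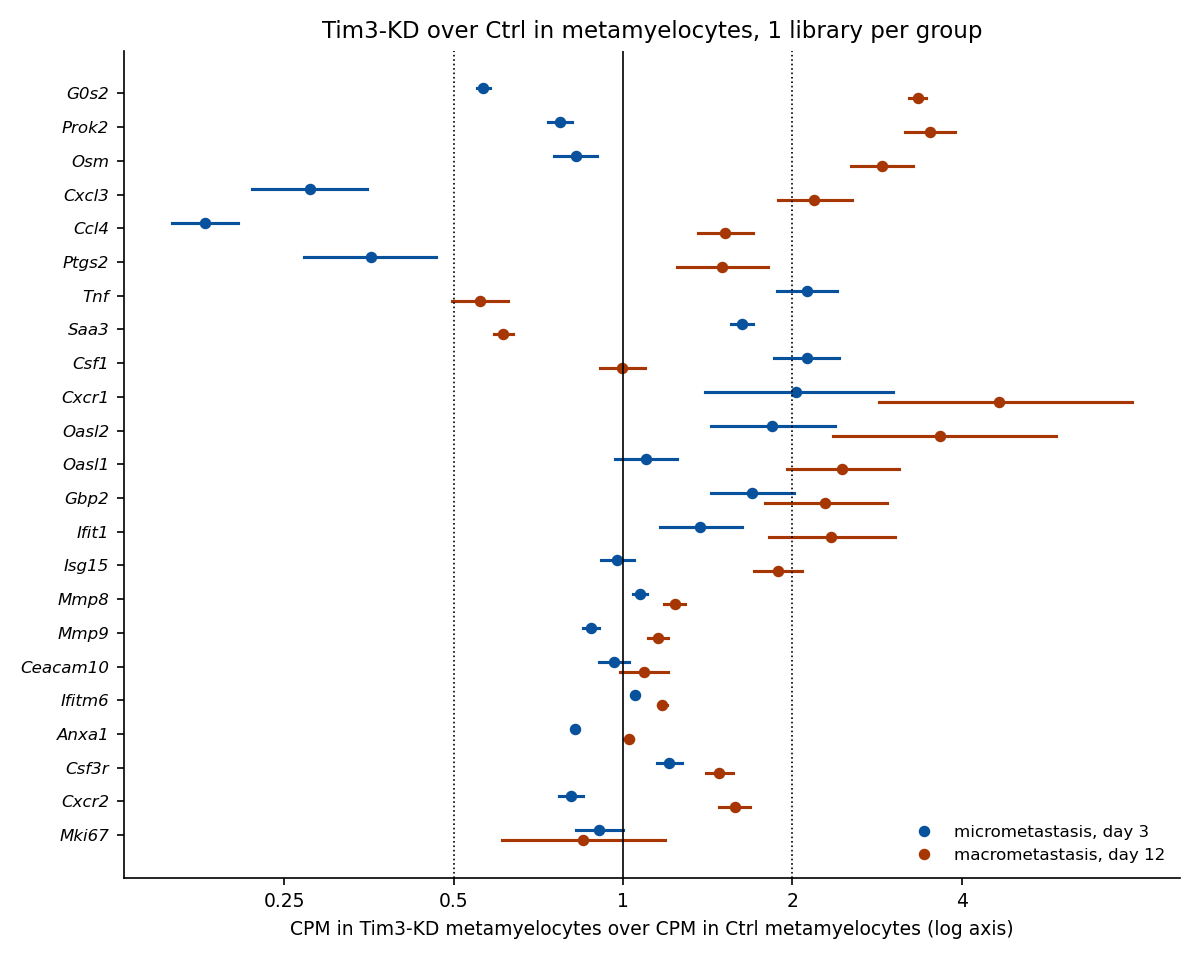
Ratio of CPM in Tim3-KD over Ctrl metamyelocytes (log axis) for 23 genes, blue for micrometastasis at day 3 and red for macrometastasis at day 12, 1 library per group, with exact intervals for counting error. Dotted lines mark 2-fold. Cxcr1 is past 2-fold upwards at both sites, Cxcl3 is past it in opposite directions, and the granule genes lie near 1.

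Of 1011 genes tested at both sites, 71 passed 2-fold in micrometastasis and 66 in macrometastasis. Of these, 7 passed in the same direction and 3 in opposite directions. Cxcr1 was the 1 gene higher at both sites, with a ratio of 2.03 (1.40 to 3.02) in micrometastasis, and the 6 lower at both were Arrdc4, H2-Ab1, H2-Ea, the immunoglobulin light chain gene Igkc and 2 joined histone features. The B cell markers of the whole libraries were also lower in Tim3-KD, at 33.0 against 355 CPM in micrometastasis and 253 against 371 CPM in macrometastasis. The part of B cell RNA in the ratios of Igkc, H2-Ab1 and H2-Ea was not tested. The 3 of opposite direction were Cxcl3, at 0.277 in micrometastasis and 2.19 in macrometastasis, the repressor gene Snai1 (0.304 and 2.48) and Socs3, an inhibitor of cytokine signalling (0.475 and 2.02). The difference between sites was not tested.

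Micrometastasis was set against AT in the Ctrl libraries, both of day 3. Of 1301 genes 10.8% were higher and 1.31% lower in micrometastasis, and the median log2 ratio of all genes was 0.23. Relative to a trimmed mean over the genes, the share of higher among the calls was 72.9% instead of 89.2%. Saa3, an acute phase serum amyloid A, was at 361 against 10.2 CPM, a ratio of 35.3 (26.6 to 48.0), and 5.86 in the other cells. The stefin A genes were higher for 4 of 4. Stfa2 was at 3863 against 1231 CPM, a ratio of 3.14 (3.05 to 3.23), and Stfa3 at 2426 against 632 CPM, a ratio of 3.84 (3.69 to 3.99). Of 19 inflammatory genes 6 were higher and none lower, among them Il1b at 978 against 375 CPM, Cxcl3 with a ratio of 3.34 and Ccl4 with 6.77 (5.38 to 8.61). The list as a whole was not raised, with a median log2 ratio of 0.054 against 0.23 over all genes. Its intervals lay above 1 for 8 genes and below 1 for 8. Relative to the trimmed mean 5 were higher and 1 lower.

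Precursor genes were also higher in the micrometastasis metamyelocytes. Of 14 cell cycle genes 7 were higher, with a median log2 ratio of 0.98, and of 7 azurophil granule genes 4 were, with Prtn3 at 149.7 against 33.0 CPM. These calls depended on how the cells were chosen. With thresholds carried over on unscaled values Prtn3 was at 1.38 and Birc5, Ccnb2, Pclaf, Rrm2 and Stmn1 were between 1.21 and 1.86. The gene F13a1, coagulation factor XIII A, had 100 against 2 UMIs, a ratio of 32.0 (8.64 to 268) that rests on few molecules in AT. The lowest were Lfng (0.262), the secreted factor Metrnl (0.298), the transcription factor Bhlhe40 (0.379) and Ly6c2, a surface antigen of monocytes and early neutrophils, at 146 against 333 CPM. Specific and gelatinase granule genes were within 2-fold apart from Chil3 at 1004 against 473 CPM.

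Macrometastasis at day 12 was set against micrometastasis at day 3 in Ctrl. Of 1051 genes 37.6% were higher and 7.42% lower, and the median log2 ratio of all genes was 0.72, so that most genes were higher on this scale. Relative to a trimmed mean, 162 genes were higher and 154 lower. Lmna, the nuclear lamin A/C, was at 31.4 against 0.954 CPM, a ratio of 33.0 (15.6 to 83.5). Mt1, a metal-binding metallothionein, was at 658 against 25.9 CPM, a ratio of 25.4 (21.9 to 29.6), and Arrdc4, an arrestin-related adaptor, at 191 against 9.68 CPM. In the other cells of the libraries the ratios of these 3 were 1.70, 2.21 and 5.67. Alb was at 42.4 against 2.32 CPM, and the hepatocyte marker list at 64.9 against 4.09 CPM.

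Of 17 inflammatory genes 8 were higher and 1 lower in macrometastasis, where 37.6% of all genes were higher, and relative to the trimmed mean 5 were higher and 2 lower, against 15.4% higher over all genes. Tnf was at 161 against 45.4 CPM, Csf1 at 189 against 38.4 CPM, Ccl3, another CC chemokine, at 262 against 55.6 CPM, and the adhesion molecule Icam1 at 33.7 against 6.82 CPM. Prok2 was the lower one, at 104 against 357 CPM. Cxcr4, the receptor that retains neutrophils in bone marrow, was at 72.5 against 29.0 CPM, a ratio of 2.50 (2.10 to 2.98), or 1.58 relative to the trimmed mean. Of 12 cell cycle genes 12 were lower, with Mki67 at 16.2 against 92.4 CPM, and of 7 azurophil granule genes 6. The cell cycle and azurophil calls did not all hold with carried thresholds, where Mki67 was at 0.519 and Birc5, Cenpf, Tubb5, Prtn3 and Ms4a3 were above 1. The histone gene H3c3 had 0 against 236 UMIs, at least 47.7-fold lower against a floor of 3 UMIs in the library, and the exact interval of its ratio reached 0.0260.

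The metamyelocytes held a message that is usually read as a T cell marker. Cd3d encodes the CD3 delta chain of the T cell receptor complex, and it was at 126, 80.2, 83.0, 139 and 105 CPM in metamyelocytes (590, 588, 1148, 617 and 599 UMIs). Its level was 9.98 to 28.5 CPM in promyelocytes, 48.1 to 129.7 CPM in myelocytes and 25.5 to 57.5 CPM in mature neutrophils. In every library metamyelocytes had the highest level of the 4 stages. The other T cell genes did not accompany it. Cd3e was at 0, 0.818, 0, 0.449 and 0 CPM and Cd3g at 0.426, 1.64, 0.361, 0.225 and 0.176 CPM. Trac and Trbc2, the constant regions of the receptor chains, were at most 0.682 and 1.36 CPM.

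At 1500 UMIs per cell Cd3d was seen in 16.7, 9.93, 10.1, 17.5 and 13.3% of metamyelocytes, in 0, 0.275, 3.70, 0.450 and 0.345% of B cells and in 57.5, 49.4, 55.9, 49.6 and 58.4% of T cells, which were called from Cd3e, Cd3g, Trac and Trbc2. The unthinned shares in metamyelocytes were 69.0, 50.4, 55.7, 60.0 and 48.1%. The metamyelocyte share was above the B cell share in all 5 libraries and below the T cell share. Cd3d lies at chromosome 9, 44981786 to 44987339, on the plus strand, and Cd3g at 44969572 to 44980431 on the minus strand, both in GRCm38, and they do not overlap. The plot of Cd3d shows these shares beside each other.

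**Figure D5:**
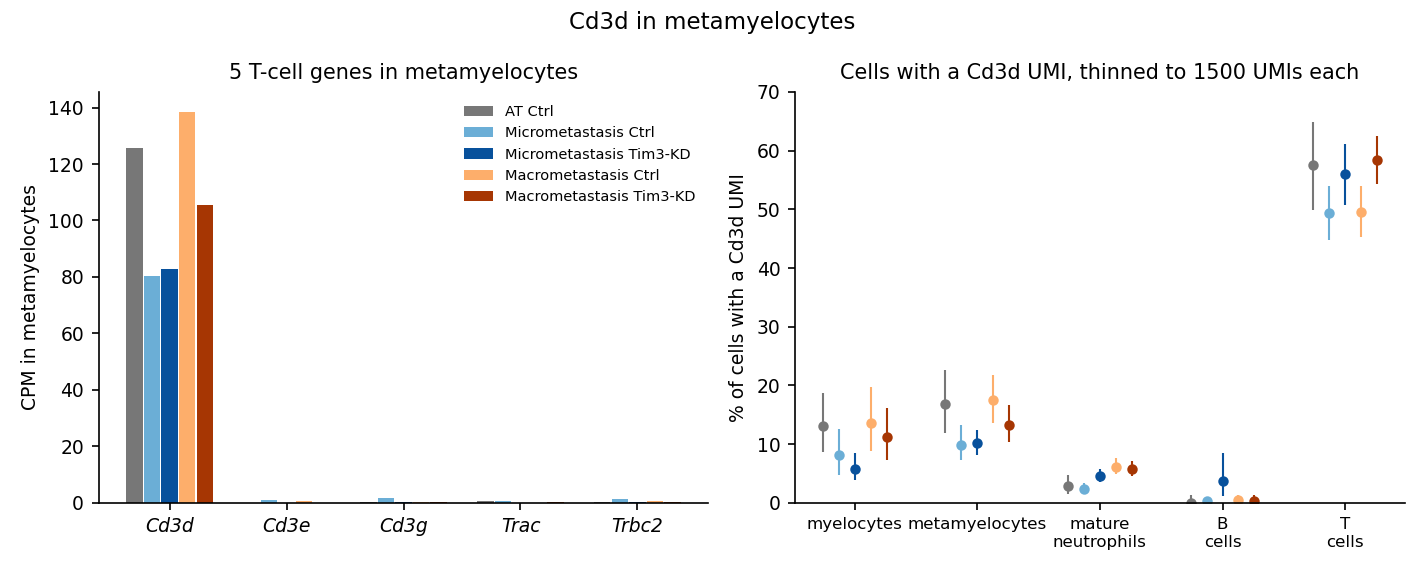
Left, level (CPM) of 5 T cell genes in the metamyelocytes of each of the 5 libraries. Right, percentage of cells with a Cd3d UMI at 1500 UMIs per cell, 1 point per library with its exact binomial interval for counting error. Cd3d is at 80.2 to 139 CPM in metamyelocytes, whereas Cd3e, Cd3g, Trac and Trbc2 are at 1.64 CPM or below.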

How the data were processed

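Per the methods and the submitters' processing notes, the authors trimmed reads with Trim Galore 0.4.3, mapped them with STAR 2.7.7a to GRCm38, counted UMIs in exons and introns, filtered cells on UMIs, genes and mitochondrial reads, and removed doublets with scrublet before deposit. No further doublet call was made. The deposited values were scaled scores, 1 matrix per site, with both libraries of a site scaled together, capped at 10. Per gene, the scores of cells lacking a UMI formed a straight line against total UMIs (a regression not stated in the methods), and this line was used to invert the scores into UMIs. For AT, micrometastasis and macrometastasis, 99.9997%, 99.9999% and 99.997% of the inverted values were whole to within 0.05. Capped values (0.144%, 0.160% and 0.153% of those detected) count as lower bounds. The matrices held 14.7%, 11.3% and 13.1% of all UMIs.

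UMIs were summed over the cells of a stage and divided by all UMIs of those cells (CPM). Group comparisons took genes with at least 50 UMIs over both sums, and a ratio of at least 2 or at most 0.5 was counted. Intervals are exact (Clopper-Pearson, conditional binomial for ratios) or Newcombe's for differences of shares. Named genes were the 6 highest and 6 lowest ratios per group comparison and the 8 highest and 8 lowest per stage comparison among genes of at least 100 UMIs, with 0.5 UMI added to each sum for ranking, and members of the lists past 2-fold. Leaving out joined features from the names, and calling T cells for the Cd3d background from 4 genes other than Cd3d (at least 2 UMIs, no neutrophil stage), were decided after the values were seen. The members and gene lists were chosen with earlier results of these data known. Motif matches used RefSeq sequences of GRCm38.p6. Python 3.11.15, numpy 2.4.6, scipy 1.17.1, pandas 2.3.3 and matplotlib 3.10.9 were used, and the inversion and ratios were tested on simulated data.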

Additional observations from a re-analysis of the deposited data

Results flagged for a closer look

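For 15 of the 86 named genes tested at both metastatic sites, the Tim3-KD over Ctrl ratio in metamyelocytes went opposite ways in micrometastasis and macrometastasis, with counting intervals on opposite sides of 1 and at least 1 ratio past 2-fold. The 86 came from the fixed lists and from the 6 highest and 6 lowest ratios of these same 2 comparisons. Genes of extreme ratio are thus over-represented among them, and the share over all 1011 genes tested at both sites was not computed. Each site has 1 library per line, site and day differ together, and the difference between the sites was not tested.

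Lower in micrometastasis and higher in macrometastasis were 8 genes, with the micrometastasis ratio given first. Among mediators these were the chemokines Cxcl3 (0.277 and 2.19) and Ccl4 (0.181 and 1.52), the prostaglandin synthase Ptgs2 (0.356 and 1.5), the peptide Prok2 (0.772 and 3.51) and the cytokine Osm (0.824 and 2.89). The lipase inhibitor G0s2 (0.564 and 3.34), the GTPase Rhoc (0.765 and 6.36) and the topoisomerase Top2a (0.857 and 3.13) were the others, and Top2a rests on 56 against 14 UMIs in macrometastasis. In mature neutrophils of the same libraries G0s2 was at 0.35 and 2.94 and Cxcl3 at 0.188 and 2.07.

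Higher in micrometastasis and lower in macrometastasis were 7 genes. These were Tnf (2.12 and 0.558), the adenosine receptor Adora2b (3.95 and 0.676), the integrin Itga5 (3.53 and 0.518), the glycosyltransferase Lfng (2.85 and 0.620), the transcription factor Klf4 (2.39 and 0.501), the LIM protein Crip1 (1.48 and 0.366) and the hepatocyte gene Alb (3.68 and 0.527). Klf4 rests on 45 against 10 UMIs in micrometastasis. Beside Alb, the hepatocyte markers summed to 4.09 and 14.6 CPM in Ctrl and Tim3-KD micrometastasis and to 64.9 and 38.2 CPM in macrometastasis.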

How the results depend on the processing

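With 1 library per group no replicate could be left out, and no spread between mice limits these values. No paired analysis was possible because no group has a replicate number to share with another. The share difference Tim3-KD minus Ctrl in micrometastasis, 7.64 points, was 9.30 with a first score above 0.75, 3.54 above 1.5, 6.15 with micrometastasis thresholds on unscaled log values and 4.65 within the lineage. The macrometastasis difference was 0.180 within the lineage. Micrometastasis minus AT turned to 0.694 within the lineage, and macrometastasis minus micrometastasis was -3.85 with carried thresholds.

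Counts of genes past 2-fold, higher and lower, were 25 and 28 (micrometastasis Tim3-KD), 28 and 6 (macrometastasis Tim3-KD), 46 and 4 (micrometastasis over AT) and 116 and 49 (macrometastasis over micrometastasis) with a minimum of 200 UMIs, by fewer genes tested. Without cells holding at least 2 markers of another class, 42 genes were higher in micrometastasis Tim3-KD, 11 lower in micrometastasis than in AT and 257 higher in macrometastasis than in micrometastasis. Relative to the trimmed mean, 35 were lower in micrometastasis than in AT, and 162 higher and 154 lower in macrometastasis than in micrometastasis. As means over cells, 30 were lower in micrometastasis than in AT. With carried thresholds, 202 were higher and 51 lower in macrometastasis than in micrometastasis. Between stages, means over cells gave 233 genes higher than in promyelocytes, 58 than in myelocytes and 46 than in mature neutrophils, and leaving out mature cells over 20000 UMIs gave 46. The cause of the other changes was not tested.

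With carried thresholds, which keep 158 instead of 355 macrometastasis Ctrl cells, 7 ratios turned direction. Ifit1 was at 0.80 in macrometastasis Tim3-KD over Ctrl. In macrometastasis over micrometastasis Ctrl, Birc5 was at 1.01, Cenpf at 1.15, Tubb5 at 1.25, Prtn3 at 1.39, Ms4a3 at 1.09 and Fcnb at 1.84. Without the 2 macrometastasis libraries all stage counts stayed within 1.5 times. Depth limits genes under 50 UMIs, which were not compared.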

Other observations

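Of 8 transcription factors and chromatin proteins of granulopoiesis tested, Cebpe of the rule included, 4 were lower than in myelocytes and none higher, against 14.9% and 16.6% of all genes. Of 9 tested against mature neutrophils 6 were lower, against 45.1% of all genes. Hmgn2, a nucleosome binding protein of dividing cells, was at 3159, 4125, 3550.0, 1573 and 1981 CPM in myelocytes, 1169.8, 1404, 1065, 497 and 493 CPM in metamyelocytes and 594, 786, 653, 194 and 296 CPM in mature neutrophils. Irf8, a factor of the monocyte and dendritic cell lineages, was at 1.92, 0.682, 0.578, 3.82 and 1.58 CPM in metamyelocytes, and Klf4, a factor of monocyte differentiation, at 2.77, 1.36, 3.25, 11.2 and 5.63 CPM. Both lay below myelocytes and mature neutrophils of the same library in all 5 libraries. Monocytes or dendritic cells were not removed from those stages, and their part in these differences was not tested.

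The immediate early gene Egr1 was at 103, 138, 74.4, 264 and 281 CPM in myelocytes, 147, 282, 182, 503 and 535 CPM in metamyelocytes and 608, 658, 352, 982 and 1136 CPM in mature neutrophils, and Fos at 120.5, 149.5, 92.1, 222 and 444, 164, 201, 106, 260.3 and 448 and 485, 516, 297, 566 and 923 CPM over the same stages. Both were lower in metamyelocytes than in mature neutrophils in 5 of 5 libraries, and their differences from myelocytes were within 2-fold at the median. Asprv1, a retroviral-like aspartic protease, was at 189.6, 316, 424, 786 and 605 CPM in myelocytes and 966, 1671, 2052, 1906 and 1574 CPM in metamyelocytes. Slfn4, an interferon-regulated schlafen gene, was at 226, 249, 222, 233 and 251 CPM in myelocytes, 545, 618, 501, 383 and 441 CPM in metamyelocytes and 460.4, 438, 402, 211 and 351 CPM in mature neutrophils, and was highest in metamyelocytes in every library.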
